A study of Mus musculus with 14 samples.

Results

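Open chromatin around 42 mouse genes of glutathione and peroxide detoxification was examined in 14 ATAC-seq libraries of neural stem cells. The genes were taken by name from known function, in a list drawn up with earlier results of these data known: 23 glutathione transferases, 6 glutathione peroxidases, 6 peroxiredoxins, 4 genes of glutathione synthesis, recycling and glutaredoxin (Gss, Gsr, Glrx, Glrx2), and 3 further detoxification genes (Txnrd2, Cbr3, Ephx1). They are 42 of the 21887 protein-coding genes in the gene table used. Merging the peaks of all 14 libraries gave 209 regions within a gene body or 20 kb of it, of 127850 regions in the genome, and 131 of the 209 lay more than 1 kb from the ends of every protein-coding gene. Many of the genes are neighbours: 16 sit in pairs or clusters whose windows overlap, and 28 regions lie near more than 1 of them, so genes of a cluster are not independent of each other.

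ATAC-seq uses the Tn5 transposase to cut and tag accessible DNA, and a peak is a place where cuts pile up. The study asked how the ZFTA-RELA fusion, a driver of supratentorial ependymoma that joins ZFTA to the NF-kB subunit RELA, relates to itaconate metabolism and to the histone methyltransferase EZH2. All libraries came from 50000 cultured mouse neural stem cells, 2 libraries per group. EV cells carried the empty vector; the label of replicate 1 names DMSO and that of replicate 2 PBS as vehicle. ZR cells carried the fusion. ZR_DMSO cells carried the fusion and have DMSO in their titles but a PBS vehicle label. ZR_GSK343 cells carried the fusion and received the EZH2 inhibitor GSK343 at 10 µM for 96 h. ZR_dmCitra cells carried the fusion and received citraconate, described as an ACOD1 antagonist, at 10 mM; the protocol names 24 h and 48 h without assigning them. In a second library series, DMSO_50K libraries are labelled as empty-vector cells with vehicle and Citraconate_50K libraries as fusion cells with citraconate at 10 mM, so that an effect of the compound and one of the cell line given on the label cannot be told apart in it. No label says that the libraries of a group came from separate cultures, and the spread between them may be technical.

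Glutathione is a small thiol that cells use against electrophiles and peroxides. Glutathione transferases join it to reactive compounds, glutathione peroxidases spend it to reduce peroxides, glutathione reductase (Gsr) restores it, and peroxiredoxins reduce peroxides through their own cysteines with help from thioredoxin. Many of these genes are known targets of NRF2, a transcription factor held back by KEAP1, which binds antioxidant response elements; itaconate is known to modify KEAP1. AP-1 factors bind a related motif, and RELA binds the kappaB motif.

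The 250 bases upstream of the start sites of 7 genes are shown because peaks at or near these start sites, described below, differ between groups. For Ephx1 the peak of ZR_GSK343 replicate 1 lay 470 to 759 bp past the start site, outside the bases shown. Gsta3, Cbr3, Ephx1 and Gpx8 were taken by rule, as genes gained or lost at a gene end in the fewest of the 4 main comparisons (1 each), with ties settled by name, whereas Mgst2, Gstp1 and Gstm5 were chosen after their values were seen. Sequences are from RefSeq on GRCm38.p6, in the direction of the gene, ending just before the start site. Capitals mark the antioxidant response element core TGACNNNGC and the AP-1 site TGACTCA, each searched on both strands (so that TGAGTCA is the same site) from 250 bases before to 50 after each start site.
Gsta3, chr1:21240335-21240584, plus strand: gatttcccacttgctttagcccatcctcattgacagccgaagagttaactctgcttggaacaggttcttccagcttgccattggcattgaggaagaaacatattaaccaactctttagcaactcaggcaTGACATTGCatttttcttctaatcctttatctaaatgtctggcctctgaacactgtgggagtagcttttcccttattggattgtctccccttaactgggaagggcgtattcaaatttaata
Mgst2, chr3:51660929-51661178, plus strand: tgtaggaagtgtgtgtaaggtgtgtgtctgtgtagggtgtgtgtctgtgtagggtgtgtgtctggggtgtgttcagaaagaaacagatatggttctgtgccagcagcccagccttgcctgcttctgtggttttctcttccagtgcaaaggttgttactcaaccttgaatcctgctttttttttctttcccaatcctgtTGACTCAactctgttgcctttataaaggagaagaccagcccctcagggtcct
Gstp1, chr19:4037913-4038162, minus strand: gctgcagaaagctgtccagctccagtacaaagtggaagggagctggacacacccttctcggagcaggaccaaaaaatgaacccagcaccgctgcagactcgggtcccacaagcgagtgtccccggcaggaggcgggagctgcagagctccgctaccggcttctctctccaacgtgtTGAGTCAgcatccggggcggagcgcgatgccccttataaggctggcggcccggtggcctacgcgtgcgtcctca
Gstm5, chr3:107895604-107895853, plus strand: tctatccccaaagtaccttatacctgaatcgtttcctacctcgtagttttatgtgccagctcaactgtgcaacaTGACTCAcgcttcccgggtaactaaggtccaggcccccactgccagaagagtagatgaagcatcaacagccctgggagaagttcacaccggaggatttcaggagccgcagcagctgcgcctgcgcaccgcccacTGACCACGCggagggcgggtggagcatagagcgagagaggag
Cbr3, chr16:93682969-93683218, plus strand: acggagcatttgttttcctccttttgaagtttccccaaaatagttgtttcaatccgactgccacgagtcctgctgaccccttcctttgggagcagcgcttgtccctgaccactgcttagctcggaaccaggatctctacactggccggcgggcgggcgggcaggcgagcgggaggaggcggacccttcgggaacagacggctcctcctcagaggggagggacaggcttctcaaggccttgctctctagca
Ephx1, chr1:181017570-181017819, minus strand: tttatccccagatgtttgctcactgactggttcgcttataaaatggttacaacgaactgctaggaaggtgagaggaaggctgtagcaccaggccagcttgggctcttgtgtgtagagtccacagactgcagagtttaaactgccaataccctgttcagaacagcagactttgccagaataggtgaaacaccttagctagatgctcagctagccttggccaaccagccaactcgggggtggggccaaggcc
Gpx8, chr13:113046389-113046638, minus strand: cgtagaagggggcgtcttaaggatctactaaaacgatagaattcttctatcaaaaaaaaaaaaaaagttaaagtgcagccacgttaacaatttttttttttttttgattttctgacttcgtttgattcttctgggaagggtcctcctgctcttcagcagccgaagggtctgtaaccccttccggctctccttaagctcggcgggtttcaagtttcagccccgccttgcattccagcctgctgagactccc

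The Gsta3 window holds 1 antioxidant response element core, beginning at base -121 from the start site. Mgst2 and Gstp1 hold 1 AP-1 site each, at -52 and -74, and Gstm5 holds an AP-1 site at -176 and an antioxidant core at -42. No letters of these motifs were found in the Cbr3, Ephx1 and Gpx8 windows, which says nothing of the factors. The RefSeq table held 54 start-site sequences for 38 of the 42 genes (not Gsta4, Gstt2, Gsr and Prdx6). Of the 54, 5 held the antioxidant core (9.26%, against 12.98% of the 21263 sequences of all protein-coding genes), 7 the AP-1 site (12.96% against 4.66%) and 3 the kappaB motif (5.56% against 9.25%). The other antioxidant cores lay in Gstm7, Mgst1 and Prdx1, and the other AP-1 sites in Gstp2, Glrx and Prdx1, where the pair of motifs overlap. The 1 Glrx site was counted in both of its overlapping sequences, at -98 and -99. Gstp1 and Gstp2 are near-identical copies with the site in the same stretch. The 7 sequences with an AP-1 site are therefore not independent, and their share was not tested.

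The libraries differed in ways that bear on every value below. The lists held 12390 to 60346 peaks, and without read counts the depth is unknown. Both ZR_DMSO libraries stood apart, with 12390 and 20881 peaks of median width 226 and 186 bp and with 1.98% and 1.65% of their strongest 12390 peaks on chromosome Y; ZR_GSK343 had 2.68% and 0.69% there and the other libraries at most 0.29%. The part of these features in the results was not tested, and ZR was therefore also used as the control for both treatments. Of 12 neural stem cell markers, EV libraries had peaks at the ends of 9 and 10, including Sox2, Sox1 and Nes, and the other libraries at 3 to 8. Sox2 and Sox1 had a peak in no list other than EV, and Pax6 in none. The DMSO_50K libraries, although labelled empty vector, had peaks at 79.3% and 85.0% of the 8349 regions gained in ZR against EV, beside 87.3% and 85.5% in ZR_dmCitra. In the full EV lists 0% and 4.29% of these regions had a peak, since the rule asks only for absence from the equal-length lists compared. Like ZR, the DMSO_50K libraries had no peak at Sox2, Sox1 or Nes. Msi1 went the other way, with a peak in both DMSO_50K libraries and in EV replicate 2 but in neither ZR library. Of the 6995 regions lost in ZR against EV, 6.83% and 6.62% had a weaker peak in the full ZR lists. The DMSO_50K libraries had a peak at 20.4% and 25.1% of them. They are called the libraries labelled DMSO_50K, and no direction from them is read as an effect of the fusion. Of 6 microglia markers 0 to 2 had a peak in a library, of 5 astrocyte markers 0 or 1, of 5 hepatocyte markers 0 or 1, of 5 neuron markers 1 to 4 and of 5 fibroblast markers 0 to 3. Some of these moved with the groups compared: fibroblast markers numbered 3 and 3 in DMSO_50K against 1 and 1 in Citraconate_50K, and neuron markers 4 and 3 against 2 and 2. In ZR_DMSO both numbered 0 or 1, beside 1 to 4 in ZR_GSK343 and 2 to 4 in ZR_dmCitra. These are counts in full lists of unequal length, and their part in the results was not tested. In such bulk samples, fewer open cells and less opening per cell cannot be told apart.

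A gene-end peak is a peak within 1 kb of either end of the gene. To put all libraries on 1 scale, each list was cut to its 12390 strongest peaks by q-value, the length of the shortest; a percentile of 100 is the strongest peak of such a list and 0 the weakest. Of the 42 genes, 8 had a gene-end peak in all 14 equal-length lists (19.05%, against 14.8% of all protein-coding genes), 19 in 1 to 13 of them and 15 in none. The 8 were Gstm7, Gsto1, Gsto2, Gstz1, Mgst1, Mgst3, Glrx2 and Prdx3. Gsto1 and Gsto2 are neighbours that share a peak in all but 1 list, and the Gstz1 peak also lies at an end of Pomt2. In the full deposited lists 9 genes had no gene-end peak anywhere (21.4%, against 36.4% of all protein-coding genes): Gstm4, Gstp2, Gstt1, Gstt2, Mgst2, Gpx2, Gpx3, Gpx7 and Prdx4. By family, 6 of 23 transferases, 0 of 6 glutathione peroxidases, 1 of 6 peroxiredoxins and 1 of the 4 synthesis and recycling genes were in all 14 equal-length lists, and 9, 4, 1 and 0 in none.

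**Figure D1:**
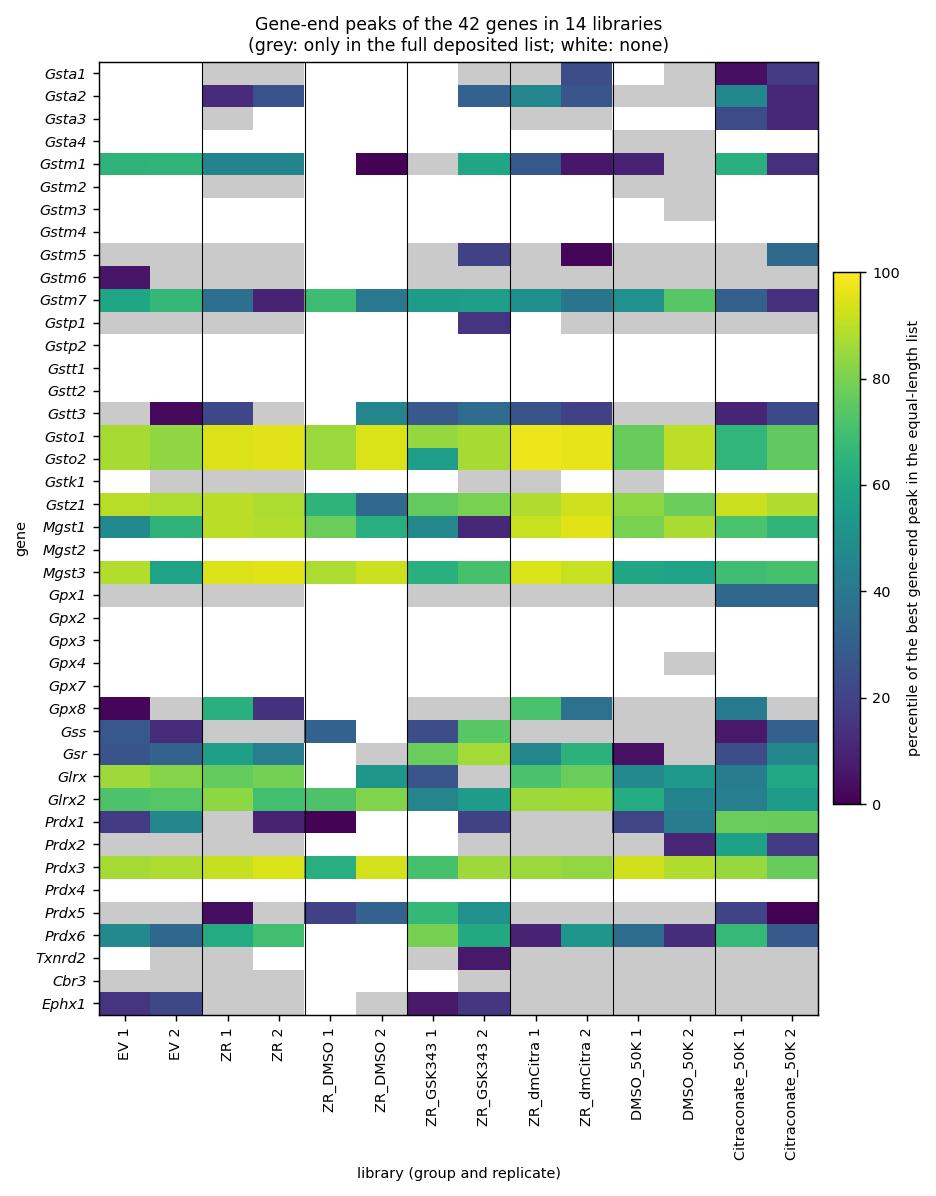
Best gene-end peak of each of the 42 genes (rows) in each of the 14 libraries (columns, 2 per group). Colour gives the percentile of that peak among the 12390 strongest peaks of the library, grey a peak present only further down the deposited list, and white no peak; 8 rows are coloured throughout, and Gsta1, Gsta2 and Gsta3 are white in EV and ZR_DMSO.

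For 3 genes, gene ends missed most or all peaks at start sites that lie inside the gene bounds of the table. The first of 4 Gpx4 start sites is at the boundary itself, but no list had a peak over the 250 bases upstream of it. Start sites were therefore also taken from the promoter sequences. With these start sites in place of gene ends, Gpx4, the peroxidase that reduces lipid peroxides in membranes, had a peak within 1 kb of a start site in all 14 deposited lists, against 1 by gene ends. Prdx4, the peroxiredoxin of the endoplasmic reticulum, had one in 13 of 14 lists, against 0. Mgst2, a microsomal transferase, had one in 9 of 14, against 0. Its peak was absent from both EV, both ZR_DMSO and the first ZR_GSK343 library and present in all others. The peak spanned -329 to 132 bp in ZR replicate 1 and -361 to 402 bp in replicate 2, and so covered the AP-1 site shown above. Of the 38 genes with start sites, 10 had a start-site peak in all 14 deposited lists and 8 in none.

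The alpha-class transferases Gsta1, Gsta2 and Gsta3, best known from liver and from the response to electrophiles, had no gene-end peak in either EV library. The Gsta1 peak (gene at chr9:78230669-78242683) had rank 29232 and 21174 in ZR and 14038 and 9454 in ZR_dmCitra, where rank 1 is the strongest peak of a library. Its rank was 27345 in ZR_GSK343 replicate 2, 59919 in DMSO_50K replicate 2, and 11873 and 10237 in Citraconate_50K, and it was absent from the other libraries. Its summit lay at -626 to -723 bp from the start site in the 8 libraries that had it. By rank the Gsta1 peak thus stood higher in each citraconate library than in any other. In the second series compound and labelled cell line cannot be told apart.

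The Gsta2 peak (gene at chr9:78331018-78347192) had rank 10794 and 9271 in ZR, 6697 and 9081 in ZR_dmCitra, 8496 in ZR_GSK343 replicate 2, 22798 and 21356 in DMSO_50K, and 6608 and 10990 in Citraconate_50K. It was absent from EV, ZR_DMSO and ZR_GSK343 replicate 1. The summits of its best peaks lay at -1114 to -1307 bp from the start site, so it counts as a gene-end peak through its flank only. Gsta3 (gene at chr1:21240565-21265575) had a peak over the antioxidant core shown above, with summits at -67 to -155 bp from the start site. Its rank was 33571 in ZR replicate 1, 17062 and 14928 in ZR_dmCitra, and 9526 and 11021 in Citraconate_50K, and the other 9 libraries had none. Both libraries of ZR_dmCitra and of Citraconate_50K thus had a Gsta3 peak, and so did 1 library of ZR. Gsta3 was not called gained in ZR_dmCitra against ZR. For Citraconate_50K, compound and labelled cell line cannot be told apart. Gsta4, which handles lipid peroxidation products, had a gene-end peak only in the libraries labelled DMSO_50K, at rank 47982 and 42279. Outside DMSO_50K only the list of ZR_GSK343 replicate 2 (57210 peaks) runs past rank 47982, which limits what the absence of this peak elsewhere shows.

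**Figure D2:**
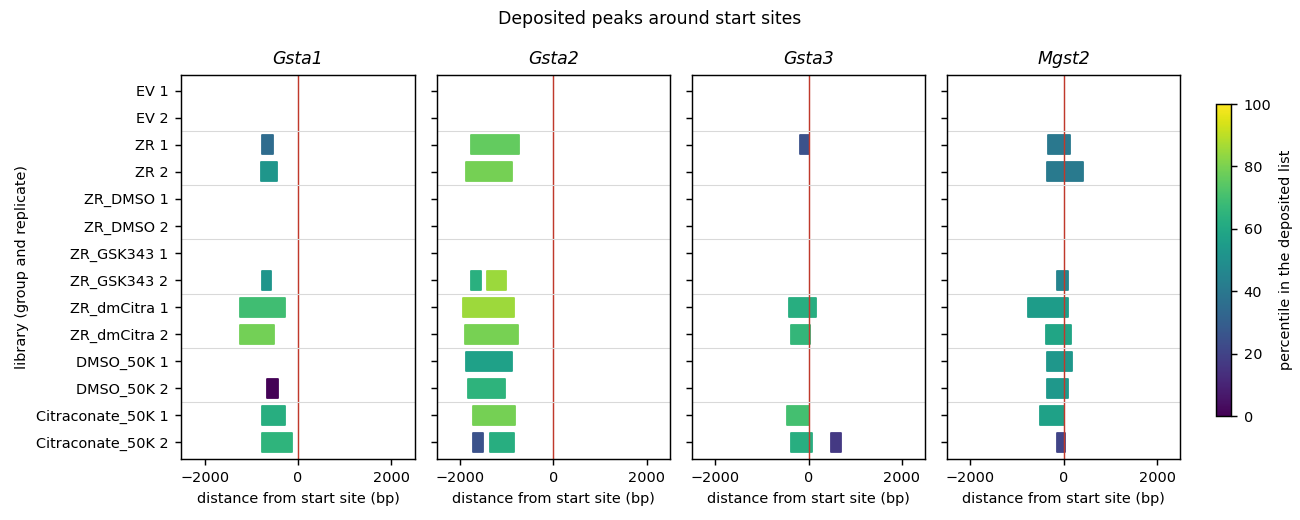
Deposited peaks (bars) on either side of the start site (vertical line, axis in bp) of Gsta1, Gsta2, Gsta3 and Mgst2 in the 14 libraries (rows), coloured by percentile in the library's full list. No EV or ZR_DMSO library has a bar in any panel; Gsta1 and Gsta2 peaks lie upstream of the start site and Gsta3 and Mgst2 peaks over it.

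The mu-class cluster on chromosome 3 was mixed. Gstm1 had percentiles of 64.9 and 65.5 in EV, 45.0 and 45.2 in ZR, 0.412 in ZR_DMSO replicate 2, 59.0 in ZR_GSK343 replicate 2, 27.4 and 6.37 in ZR_dmCitra, 9.68 in DMSO_50K replicate 1, and 63.3 and 13.5 in Citraconate_50K, and no peak at this length elsewhere. Gstm7 had 58.8 and 66.6 in EV, 36.4 and 9.66 in ZR, 69.1 and 40.5 in ZR_DMSO, 54.9 and 55.6 in ZR_GSK343, 50.4 and 39.0 in ZR_dmCitra, 50.5 and 74.1 in DMSO_50K, and 30.5 and 13.5 in Citraconate_50K. Gstm7 was thus lower in ZR than in EV and lower in Citraconate_50K than in DMSO_50K, with no overlap in either. Gstm5, a brain and testis form, had a peak in every deposited list outside ZR_DMSO, at rank 8116 (Citraconate_50K replicate 2) to 31814 (DMSO_50K replicate 2). Gstm6 was likewise in 12 deposited lists, mostly at the end away from its start, at rank 11658 in EV replicate 1 to 34613 in DMSO_50K replicate 1. Gstm2 had a peak only in ZR, at rank 39741 and 41702, and in DMSO_50K, at rank 24840 and 23475.

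Gstp1, the pi-class transferase common in tumours, had a peak over its AP-1 site in 10 deposited lists. Its rank was 19533 and 24415 in EV, 34688 and 27908 in ZR, 10539 in ZR_GSK343 replicate 2, 24377 in ZR_dmCitra replicate 2, 38827 and 34394 in DMSO_50K, and 14681 and 13344 in Citraconate_50K. The near-identical copy Gstp2 had none in any list; how reads that fit both copies were placed is not known here, so both are uncertain. Gstt3 had a peak in 13 deposited lists, all at the end away from its start sites and shared with Ddt in some, so it cannot be assigned to Gstt3.

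The microsomal transferases Mgst1 and Mgst3 and the zeta-class Gstz1, a maleylacetoacetate isomerase, had some of the strongest peaks. Mgst1 (chr6:138140527-138156755) had percentiles of 47.6 and 65.2 in EV, 89.6 and 88.4 in ZR, 77.7 and 62.7 in ZR_DMSO, 47.3 and 11.4 in ZR_GSK343, 91.5 and 95.4 in ZR_dmCitra, 79.8 and 87.4 in DMSO_50K, and 71.7 and 65.5 in Citraconate_50K. Both ZR libraries lay above both EV libraries, and both ZR_GSK343 libraries below every ZR and ZR_DMSO library. Mgst3 had 88.5 and 58.2 in EV, 94.8 and 95.4 in ZR, 87.8 and 91.9 in ZR_DMSO, 63.6 and 71.0 in ZR_GSK343, 94.2 and 91.6 in ZR_dmCitra, 59.1 and 58.1 in DMSO_50K, and 69.2 and 70.8 in Citraconate_50K. Mgst3 was also lower in ZR_GSK343 than in the other fusion groups of the first series. Gstz1 had 89.1 and 87.7 in EV, 89.7 and 87.6 in ZR, 65.0 and 34.3 in ZR_DMSO, and 75.9 to 92.7 in the other 8 libraries, so its low values were those of ZR_DMSO. The omega-class pair Gsto1 and Gsto2 lay at percentile 65.9 to 97.3 in every library by their shared peak, except that the best Gsto2 peak of ZR_GSK343 replicate 1 was another one, at 55.6.

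Among the genes that make and restore glutathione, glutathione reductase (Gsr, chr8:33653238-33698162) had percentiles of 25.9 and 31.5 in EV, 56.4 and 42.7 in ZR, 77.0 and 86.0 in ZR_GSK343, 46.0 and 63.7 in ZR_dmCitra, 4.43 in DMSO_50K replicate 1, and 23.7 and 45.7 in Citraconate_50K. It was absent from both ZR_DMSO lists at this length. Both ZR_GSK343 values were above those of every other library. Glutathione synthetase (Gss) had 27.3 and 12.6 in EV, 31.4 in ZR_DMSO replicate 1, 23.6 and 74.1 in ZR_GSK343, and 6.84 and 30.5 in Citraconate_50K, and no peak at this length in ZR, ZR_dmCitra or DMSO_50K. Glutaredoxin (Glrx), which removes glutathione from proteins, had 85.4 and 81.9 in EV, 76.4 and 79.3 in ZR, 53.0 in ZR_DMSO replicate 2, 26.4 in ZR_GSK343 replicate 1, 71.3 and 77.4 in ZR_dmCitra, 47.0 and 53.8 in DMSO_50K, and 41.8 and 59.6 in Citraconate_50K. Its mitochondrial relative Glrx2 had 72.2 and 73.8 in EV, 82.9 and 69.8 in ZR, 72.2 and 81.1 in ZR_DMSO, 45.4 and 55.1 in ZR_GSK343, 85.5 and 85.8 in ZR_dmCitra, 62.1 and 45.2 in DMSO_50K, and 42.7 and 54.7 in Citraconate_50K. Glrx and Glrx2 were thus at their lowest in ZR_GSK343 within the fusion groups of the first series, apart from the missing Glrx peak of ZR_DMSO replicate 1.

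Of the glutathione peroxidases, Gpx1, the main cytosolic form, had a peak in every deposited list outside ZR_DMSO but reached the strongest 12390 only in Citraconate_50K, at percentile 33.6 and 33.0. In 3 lists that peak also lies at an end of Rhoa. Gpx8, a form of the endoplasmic reticulum, had percentiles of 1.52 in EV replicate 1, 63.6 and 14.6 in ZR, 71.2 and 37.4 in ZR_dmCitra, and 41.7 in Citraconate_50K replicate 1, with no peak at this length elsewhere. Gpx2, Gpx3 and Gpx7 had none in any deposited list, and no region at all lay within 20 kb of Gpx7.

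Among the peroxiredoxins, the mitochondrial Prdx3 was open throughout, at percentile 62.7 to 94.2. Prdx1, the abundant cytosolic form, had 17.2 and 46.3 in EV, 9.46 in ZR replicate 2, 1.04 in ZR_DMSO replicate 1, 19.6 in ZR_GSK343 replicate 2, 20.9 and 42.3 in DMSO_50K, and 77.0 and 76.7 in Citraconate_50K, and no peak at this length in ZR_dmCitra. Both Citraconate_50K values lay above those of all other libraries. Prdx6 (chr1:161240112-161251210), which reduces phospholipid peroxides, had 46.9 and 33.8 in EV, 61.5 and 69.8 in ZR, none in ZR_DMSO at any list length, 79.6 and 60.9 in ZR_GSK343, 9.73 and 52.7 in ZR_dmCitra, 35.4 and 12.9 in DMSO_50K, and 66.9 and 28.1 in Citraconate_50K. Prdx5, whose peak lies where Esrra and Trmt112 also end, had 3.74 in ZR replicate 1, 19.5 and 31.4 in ZR_DMSO, 66.5 and 50.4 in ZR_GSK343, and 20.5 and 0.638 in Citraconate_50K, and none at this length in EV, ZR_dmCitra or DMSO_50K. Its highest values were those of ZR_GSK343.

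The remaining detoxification genes had weaker peaks. Ephx1, the microsomal epoxide hydrolase, had percentiles of 15.1 and 21.6 in EV and 6.85 and 15.9 in ZR_GSK343, and elsewhere its peak lay below the strongest 12390 or, in ZR_DMSO replicate 1, was absent. The carbonyl reductase gene Cbr3 had a peak in 11 deposited lists, at rank 15261 and 22674 in EV, 34522 and 26057 in ZR, 23037 in ZR_GSK343 replicate 2, 34074 and 32125 in ZR_dmCitra, 46504 and 41190 in DMSO_50K, and 17610 and 17160 in Citraconate_50K. Txnrd2, the mitochondrial thioredoxin reductase, had a peak that cannot be assigned to it alone. Its rank was 18631 in EV replicate 2, 36834 in ZR replicate 1, 15922 and 11560 in ZR_GSK343, 27615 and 32076 in ZR_dmCitra, 43793 and 39215 in DMSO_50K, and 13299 and 15680 in Citraconate_50K.

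Counted over the 42 genes at 12390 peaks per library, a gene-end peak was found for 17 and 16 genes in EV, 16 and 15 in ZR, 11 and 12 in ZR_DMSO, 15 and 20 in ZR_GSK343, 15 and 17 in ZR_dmCitra, 13 and 12 in DMSO_50K, and 22 and 22 in Citraconate_50K. Citraconate_50K (22 ± 0 genes, mean ± SD, n = 2) exceeded DMSO_50K (12.5 ± 0.707) by 9.5 genes, with an exact two-sided permutation p of 0.3333, the smallest that 2 libraries against 2 can give. In the full deposited lists, which are longer for DMSO_50K, the direction turned, with 28 ± 0 genes in Citraconate_50K and 30 ± 1.41 in DMSO_50K (n = 2) and, away from gene ends, 46 ± 2.83 against 55.5 ± 6.36 regions. In these full lists all protein-coding genes with a gene-end peak numbered 10681 and 10651 in Citraconate_50K and 11338 and 11695 in DMSO_50K. At 12390 peaks per library all protein-coding genes moved the way the 42 did. They went from 27.1% and 26.5% with a gene-end peak in DMSO_50K to 37.5% and 37.9% in Citraconate_50K, against 31.0% and 28.6% to 52.4% and 52.4% of the 42. Away from gene ends, of 33 regions near the 42 genes at this list length 5 and 8 had a peak in DMSO_50K and 12 and 12 in Citraconate_50K, with the same p of 0.3333, whereas the share over all such regions of the genome was lower in Citraconate_50K (26.0% and 25.4%) than in DMSO_50K (32.9% and 33.9%). At this list length the 42 genes and the genome thus went in opposite directions away from gene ends, and whether they differ was not tested. Of the 33 regions, 2 hold start sites that lie inside the gene bounds, those of Gpx4 and Prdx4. The Gpx4 region had no peak in DMSO_50K and one in both Citraconate_50K libraries (rank 3135 and 6836). The Prdx4 region went the other way, with a peak in both DMSO_50K libraries and in Citraconate_50K replicate 2 only. ZR (15.5 ± 0.707 genes, n = 2) was 1 gene below EV (16.5 ± 0.707), with an exact permutation p of 0.667. All protein-coding genes went from 35.5% and 36.0% with a gene-end peak in EV to 30.1% and 30.2% in ZR. In the full deposited lists ZR was above EV, with 29 ± 1.41 against 25 ± 1.41 genes (exact permutation p = 0.3333, n = 2). Away from gene ends it had 50.5 ± 4.95 against 33 ± 5.66 regions, for which no number over the genome was taken. Over all protein-coding genes these lists held a gene-end peak for 11011 and 10989 in ZR and 10909 and 11392 in EV. The ZR lists were longer, with 44843 and 44560 peaks against 34989 and 43458.

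**Figure D3:**
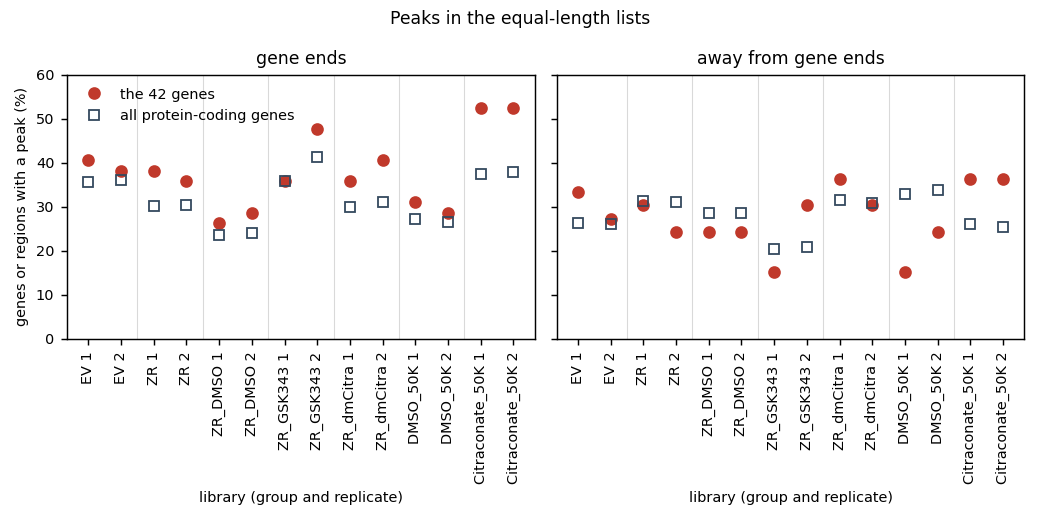
Share of the 42 genes (filled) and of all protein-coding genes (open) with a gene-end peak, left, and of regions away from gene ends, right, among the 12390 strongest peaks of each library. At gene ends both Citraconate_50K libraries reach 52.4% of the 42 genes, above all other libraries; away from gene ends the filled points of DMSO_50K and Citraconate_50K move against the open ones.

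For each comparison the 4 lists involved were cut to the shortest of them. A gene-end peak or region was called gained when it was present in both test libraries and in neither control library, and lost in the opposite case. The share of all protein-coding genes, or of all regions away from gene ends, called in the same way is given as background. When a library was left out, the remaining lists were cut to the shortest of them. The single library left in its group then decided for that group, which makes the rule looser. No background share was taken for these counts, so a larger count is not a result about the genes. A peak present in all 4 lists was called ranked higher or lower when the groups did not overlap and their mean percentiles differed by at least 10 points.

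With the fusion (ZR against EV, 34989 peaks each), 2 of 29 genes with a gene-end peak gained one, Gsta1 and Gsta2 (6.9%, background 3.09%), and 0 lost one (background 6.92%). Gsta1 stood at percentile 16.5 and 39.5 and Gsta2 at 69.2 and 73.5 in ZR. Neither had a peak anywhere in the deposited EV lists. With a window of 500 bp neither peak is called, and 0 genes gain one. At the length of the shortest of all 14 lists, only Gsta2 is called and 2 genes, Gss and Ephx1, are lost; without ZR replicate 1, Prdx2 is called lost.

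Of 23 genes with a gene-end peak in all 4 lists, 3 ranked higher in ZR (background 8.59% of genes) and 6 ranked lower (background 28.4%). Mgst1 rose from percentile 81.5 and 87.7 in EV to 96.3 and 95.9 in ZR, Gpx8 from 65.1 and 57.4 to 87.1 and 69.8, and Prdx5 from 52.7 and 46.4 to 65.9 and 54.4. The 6 lower ones were Gstm6 (66.7 and 60.9 in EV, 18.1 and 24.5 in ZR), Cbr3 (56.4 and 35.2, then 1.34 and 25.5), Gstp1 (44.2 and 30.2, then 0.863 and 20.2), Gss (74.3 and 69.1, then 36.0 and 62.0), Gstm7 (85.4 and 88.2, then 77.5 and 68.0) and Prdx1 (70.7 and 81.0, then 59.1 and 67.9). The median difference, ZR minus EV, was 2.02 percentile points over the 23 genes and -2.78 over all genes.

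Away from gene ends, 21 of 71 regions were gained in ZR (29.6%, background 25.5%) and 11 lost (15.5%, background 21.4%), both near the background. The strongest gained region lay 14259 bp from Glrx, at chr13:75824677-75825626, where the authors' fold enrichment was 25.0 and 25.3 in ZR with no EV peak. Next came a region inside Mgst3 at chr1:167387132-167388094 (fold 20.2 and 18.8), one 10401 bp from Gstz1 at chr12:87175124-87175981 (22.9 and 17.7) and one 11298 bp from Mgst3 at chr1:167359994-167360668 (19.2 and 16.1). The gained set also held the start site of Mgst2, at chr3:51660818-51661581 (9.05 and 9.14), and a region inside Gsr at chr8:33674179-33674791 (12.2 and 11.3). The strongest lost regions lay 2483 bp from Gstt2 at chr10:75827782-75829359 (fold 20.8 and 19.6 in EV), 7550 bp from Gstm5 at chr3:107887760-107888304 (17.7 and 16.9), 15054 bp from Mgst1 at chr6:138171809-138172366 (16.4 and 16.4) and 18049 bp from Prdx6 at chr1:161269259-161269801 (12.6 and 17.5). Without EV replicate 1, 17 regions met the rule for a loss, and without EV replicate 2, 21 did.

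Looked up in the full lists of the other groups, the 21 gained regions had a peak for 2 and 4 in ZR_DMSO, 1 and 9 in ZR_GSK343, 19 and 19 in ZR_dmCitra, 17 and 19 in the libraries labelled DMSO_50K, and 14 and 13 in Citraconate_50K. In Citraconate_50K that is 66.7% and 61.9%, beside 47.8% and 45.2% of all 8349 gained regions, and in DMSO_50K 81.0% and 90.5%, beside 79.3% and 85.0%. It is 9.52% and 19.05% in ZR_DMSO, beside 16.7% and 32.0%, 4.76% and 42.9% in ZR_GSK343, beside 7.52% and 58.7%, and 90.5% and 90.5% in ZR_dmCitra, beside 87.3% and 85.5%. The lists of ZR_DMSO and the first ZR_GSK343 library are the shortest, which limits their counts. Of the 11 lost regions, ZR had a weaker peak for 3 and 3 (27.3% and 27.3%, beside 6.83% and 6.62% of all 6995 lost regions), DMSO_50K had a peak for 3 and 5 (27.3% and 45.5%, beside 20.4% and 25.1%) and Citraconate_50K for 3 and 2 (27.3% and 18.2%, beside 7.21% and 6.55%).

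**Figure D4:**
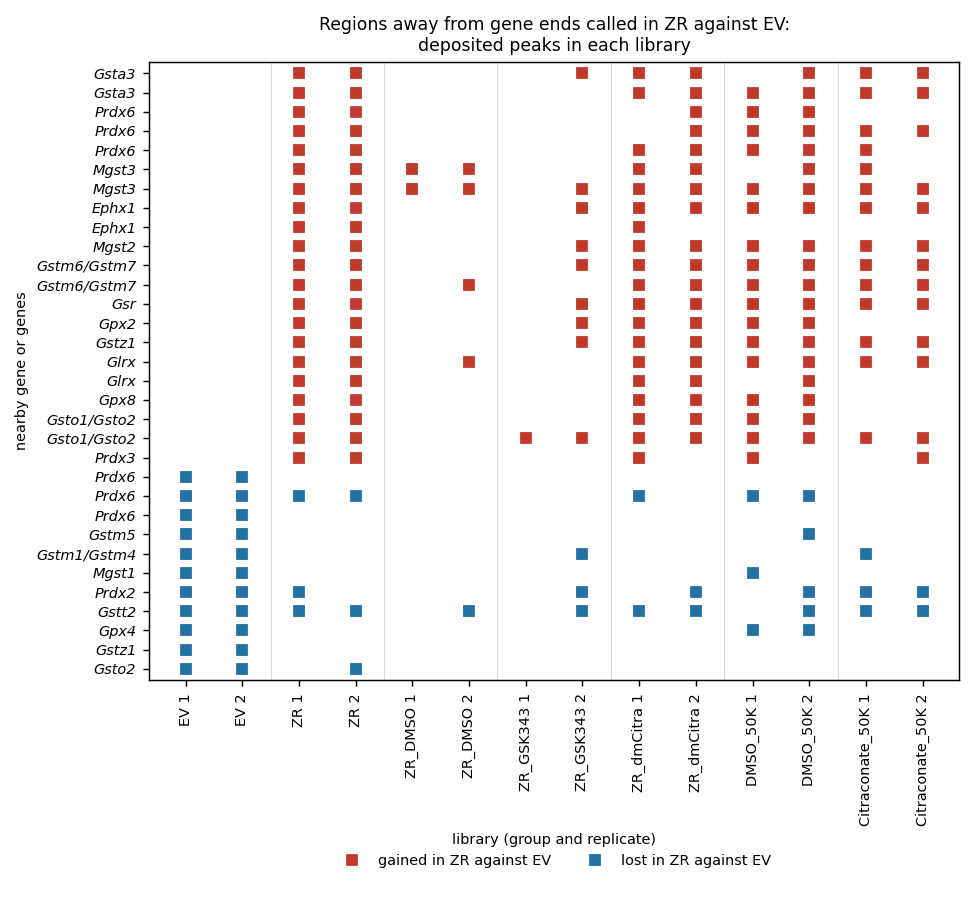
The 21 regions gained and 11 lost away from gene ends in ZR against EV (rows, named by the nearby gene) and the deposited peaks that overlap them in each library (filled squares). Gained regions are filled in most ZR_dmCitra, DMSO_50K and Citraconate_50K libraries and for at most 4 of 21 in ZR_DMSO; 3 of the 11 lost regions have a peak in each ZR library, below the list length compared.

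For EZH2 inhibition, ZR_GSK343 against ZR_DMSO (12390 peaks each) gave 3 gained genes of 21, Gsr, Prdx6 and Ephx1 (14.3%, background 20.7%), and 0 lost (background 0.405%). Gsr stood at percentile 77.0 and 86.0, Prdx6 at 79.6 and 60.9 and Ephx1 at 6.85 and 15.9, with no ZR_DMSO peak among the 12390; in the full list of ZR_DMSO replicate 2, Gsr was at rank 20826 and Ephx1 at 18399. Of these only Prdx6 had no peak in either full ZR_DMSO list. Against ZR (19239 peaks) the same treatment gave 1 gained gene of 25, Txnrd2 (4%, background 9.82%), and 0 lost (background 1.43%), and none of the 3, since all of them had peaks in ZR. Leaving out ZR_GSK343 replicate 1 gave 7 gained genes and leaving out ZR_DMSO replicate 1 gave 6.

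Of 9 genes with a peak in all 4 lists, Mgst1, Mgst3 and Glrx2 ranked lower with GSK343 than in ZR_DMSO (background 13.7%) and Gstz1 and Prdx5 higher (background 31.6%). Against ZR, 5 of 17 ranked lower, Gsto2, Mgst1, Mgst3, Glrx and Glrx2 (background 14.3%), and 6 higher, Gstm5, Gstm7, Gstt3, Gsr, Prdx5 and Ephx1 (background 33.8%). Mgst1 fell from percentile 93.3 and 92.5 in ZR to 66.0 and 42.9, Glrx from 84.8 and 86.7 to 52.6 and 28.6, and Mgst3 from 96.6 and 97.0 to 76.6 and 81.3. Prdx5 rose from 38.0 and 17.1 to 78.4 and 68.1 and Gsr from 71.9 and 63.1 to 85.2 and 91.0. The median difference over the genes was -4.10 points against ZR_DMSO and -6.20 against ZR, where all genes had 5.46 and 3.35. Mgst1, Mgst3, Glrx2 and Prdx5 were thus called the same way with either control; both comparisons use the same GSK343 libraries.

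Away from gene ends, 1 of 16 regions was gained with GSK343 against ZR_DMSO (6.25%, background 5.38%), 10698 bp from Gsr at chr8:33641551-33642540 (fold 6.996 and 16.4), and 1 was lost (6.25%, background 12.4%), 11436 bp from Mgst3 at chr1:167360362-167360530 (fold 5.80 and 7.63 in ZR_DMSO). Against ZR, 3 of 30 were gained (10%, background 5.32%) and 4 lost (13.3%, background 19.2%). The 4 lost regions, those near Glrx, Gstz1 and Mgst3 given above and one inside Gstm7 at chr3:107929359-107929771, were all among the 21 gained in ZR against EV. The ZR libraries serve in both comparisons, so the overlap is no independent result. Leaving out single libraries gave 1 to 4 gained (4 without ZR_GSK343 replicate 2 or without ZR_DMSO replicate 1, 3 without ZR_GSK343 replicate 1) and 1 to 5 lost regions against ZR_DMSO (5 without ZR_DMSO replicate 1, 3 without ZR_DMSO replicate 2, 2 without ZR_GSK343 replicate 2).

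For citraconate in the first series, ZR_dmCitra against ZR_DMSO (12390 peaks each) gave 4 gained genes of 20, Gsta2, Gpx8, Gsr and Prdx6 (20%, background 12.3%), and 1 lost, Prdx5 (5%, background 1.56%). Gsta2 stood at percentile 46.0 and 26.7, Gpx8 at 71.2 and 37.4, Gsr at 46.0 and 63.7 and Prdx6 at 9.73 and 52.7, and Prdx5 at 19.5 and 31.4 in ZR_DMSO. In the full ZR_dmCitra lists Prdx5 had a peak at rank 17464 and 16155, below the cut of 12390. Against ZR it was not called, with a rank difference of -6.52 points. Gsr and Prdx6 were also among the genes gained with GSK343, but both comparisons use the same ZR_DMSO libraries, whose 12390 strongest peaks hold neither. Against ZR (44033 peaks) 0 of 30 genes were gained (background 1.04%) and 1 lost, Gstm2 (3.33%, background 1.13%), whose ZR peaks ranked 39741 and 41702. No gene gained against ZR_DMSO was thus gained against ZR. Leaving out ZR_DMSO replicate 1 gave 8 gained and 0 lost genes, and leaving out replicate 2 gave 7 gained and 3 lost.

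By rank, Gstz1 and Mgst1 of 8 genes were higher in ZR_dmCitra than in ZR_DMSO (background 31.8%) and 0 lower (background 7.51%). Against ZR, 1 of 25 genes was higher, Gsta1 (background 9.1%), and 1 lower, Ephx1 (background 8.21%). Gsta1 rose from percentile 33.6 and 51.9 in ZR to 68.1 and 78.5 in ZR_dmCitra, a difference of 30.6 points, where the median over all genes was 0.216 and over the 25 genes 0.493. Ephx1 went from 71.0 and 67.6 to 38.6 and 62.1.

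Away from gene ends, 4 of 19 regions were gained against ZR_DMSO (21.1%, background 13.7%): the Glrx region at chr13:75824726-75825764 (fold 26.5 and 23.9), the region 10703 bp from Gsr at chr8:33641530-33642535 (18.2 and 17.0), the one inside Gsr at chr8:33673932-33674902 (21.3 and 17.0) and one inside Gsto2 at chr19:47882259-47882948 (16.6 and 16.4). The 1 lost region (5.26%, background 8.67%) lay 6140 bp from Gpx8 at chr13:113052570-113052777. Against ZR, 1 of 79 regions was gained (1.27%, background 5.34%) and 3 were lost (3.8%, background 6.09%). Without ZR_DMSO replicate 1, 12 regions were gained and 4 lost, and without replicate 2, 5 were lost.

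In the second series, Citraconate_50K against the libraries labelled DMSO_50K (29432 peaks each) gave 7 gained genes of 30 (23.3%, background 7.39%). They were the transferases Gsta1, Gsta3, Gstm5, Gstm6 and Gstp1 together with Txnrd2 and Cbr3. Gsta1 stood at percentile 59.7 and 65.2, Gsta3 at 67.6 and 62.6, Gstm5 at 39.0 and 72.4, Gstm6 at 49.5 and 40.4, Gstp1 at 50.1 and 54.7, Txnrd2 at 54.8 and 46.7 and Cbr3 at 40.2 and 41.7. Gstm2 was lost (1 of 30, 3.33%, background 1.51%), from percentile 15.6 and 20.2. In the full DMSO_50K lists, which are longer, Gstm5, Gstm6, Gstp1, Txnrd2 and Cbr3 had weaker peaks in both libraries and Gsta1 in replicate 2, so that only Gsta3 was called gained from the lists as deposited. At 12390 peaks per list 7 genes were gained, but they were Gsta1, Gsta2, Gsta3, Gstt3, Gpx1, Gss and Prdx5, with only Gsta1 and Gsta3 in common. No background share was taken at this length or for the lists as deposited. At 12390 peaks the share of all protein-coding genes with a gene-end peak also rose, from 27.1% and 26.5% in DMSO_50K to 37.5% and 37.9% in Citraconate_50K. Leaving out DMSO_50K replicate 1 gave 2 lost genes, Gstm2 and Gpx4.

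Of 20 genes with a peak in all 4 lists, 8 ranked higher in Citraconate_50K (background 45.4%) and 1 lower, Gstm7 (background 3.03%). The 8 were Gss (percentile 6.49 and 23.1 in DMSO_50K, 60.8 and 70.7 in Citraconate_50K), Prdx5 (6.97 and 20.7, then 66.5 and 58.2), Gsta2 (22.5 and 27.4, then 77.6 and 62.7), Gstm1 (62.0 and 46.8, then 84.5 and 63.6), Gpx1 (55.9 and 49.4, then 72.1 and 71.8), Prdx1 (66.7 and 75.7, then 90.3 and 90.2), Gsr (59.8 and 48.0, then 67.9 and 77.2) and Gstt3 (49.4 and 47.6, then 62.2 and 67.3). Gene-end peaks in general ranked higher in Citraconate_50K, with a median difference of 9.24 points over all genes and 7.32 over the 20, so a higher rank is the common case here. Gstm7 went against it, from 79.2 and 89.1 to 70.7 and 63.6.

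Away from gene ends, 8 of 66 regions were gained in Citraconate_50K (12.1%, background 9.3%) and 2 lost (3.03%, background 18.5%). With the lists as deposited, 3 were gained and 15 lost. Those lists held 52670 and 60346 peaks in DMSO_50K against 31702 and 29432 in Citraconate_50K, and no background share was taken for them. The strongest gained were inside Gpx4 at chr10:80051903-80052327 (fold 10.9 and 9.44), inside Gsto2 at chr19:47882407-47882946 (9.36 and 8.33), inside Gsta3 at chr1:21244017-21244610 (7.28 and 12.2) and 3714 bp from Gstt2 at chr10:75827784-75828128 (6.24 and 7.77). The 2 lost were 2314 bp from Gsto1 at chr19:47852028-47852659 (10.6 and 18.5 in DMSO_50K) and inside Gstm1 at chr3:108014189-108014797 (10.6 and 16.2). Without Citraconate_50K replicate 1 there were 21 gained regions and without replicate 2 there were 25; without DMSO_50K replicate 1 there were 7 lost and without replicate 2 there were 4.

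**Figure D5:**
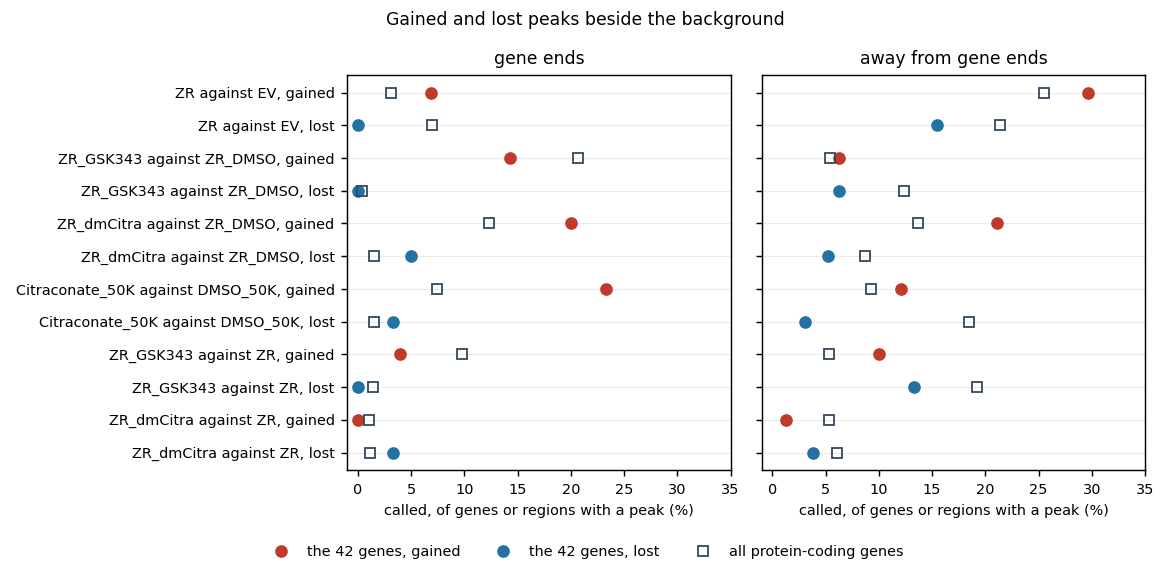
Share of the 42 genes' gene-end peaks (left) and of regions near them away from gene ends (right) that were gained or lost in each comparison (filled), beside the same share over all protein-coding genes or regions (open). The 23.3% of gene-end peaks gained in Citraconate_50K against DMSO_50K lies farthest from its background of 7.39%.

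Other genes of the pathway were read from a list of 50, all in the gene table, which spans NRF2 and KEAP1, the glutathione synthesis enzymes, thioredoxins, superoxide dismutases, catalase and NADPH sources. The backgrounds are those given for gene-end peaks above. In ZR against EV, 0 of 40 gained a gene-end peak (background 3.09%) and 2 lost one (5%, background 6.92%). These were Keap1 (percentile 60.8 and 56.0 in EV) and Sod3, the extracellular superoxide dismutase (76.9 and 87.7). With GSK343, Keap1 was the only one of 31 gained against ZR_DMSO (30.3 and 16.3; 3.23%, background 20.7%) and of 37 against ZR (55.1 and 46.1; 2.7%, background 9.82%), while Srxn1 and Nqo1, both known NRF2 targets, were lost against ZR (5.41%, background 1.43%). In ZR, Srxn1 stood at percentile 0.639 and 30.9 and Nqo1 at 21.0 and 1.65, so a ZR peak of each lay near the cut of 19239 peaks. Nqo1 also had a weaker peak in the full list of ZR_GSK343 replicate 2, at rank 25382. In ZR_dmCitra, Nqo1, a quinone reductase, was the only one of 31 gained against ZR_DMSO (20.6 and 54.5; 3.23%, background 12.3%), with 0 lost, and 0 of 39 were called in either direction against ZR. In Citraconate_50K, Keap1 (48.0 and 56.6) and Ggt1, which cleaves extracellular glutathione (20.7 and 31.4), were gained of 36 (5.56%, background 7.39%), with 0 lost; both had weaker peaks in the full DMSO_50K lists. The Keap1 peak had rank 13718 and 15396 in EV, 8635 and 10373 in ZR_GSK343, and 15298 and 12768 in Citraconate_50K, against 38160 and 42338 in ZR and 31367 and 33584 in DMSO_50K. It was absent from the shorter ZR_DMSO lists.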

How the data were processed

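ATAC-seq peak lists of 14 libraries were used, 1 per library and 2 per group, grouped by title and label. The submitters' processing notes name BWA, SAMtools, Picard and mm10, with no versions. Names of the deposited peaks show that MACS2 called them library by library; for its settings and any Tn5 shift, not given in the sources used here, nothing was assumed. Every peak has a score, a fold enrichment ratio, a summit, and the −log10 of its p-value and of its q-value, all deposited by the authors, and these served only to rank or describe peaks within a list. The depth is unknown, so no counting interval is given.

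Peaks on chromosomes 1 to 19, X and Y were kept. Gene bounds came from RefSeq on GRCm38.p6 (mm10 coordinates), without strand; start sites and sequences came from a RefSeq promoter table. For each comparison lists were cut to the shortest by −log10 q, and a 1 bp overlap counted. Python 3.11.15, numpy 2.4.6, scipy 1.17.1 (exact permutation tests) and matplotlib 3.10.9 were used, and the calling was tested on simulated lists. The genes, the pathway list and the markers were chosen with earlier results of these data known. Named were all genes called at gene ends or by rank, up to 4 regions gained and lost per comparison by the poorer rank, and called pathway genes; further regions and genes were named after their values were seen. Alternatives were windows of 500 bp and 2 kb, the peak summit, lists as deposited or at the shortest of 14 lengths, −log10 q of at least 5, 50% overlap, ZR as control, a replicate block, and omission of each library; start sites in place of gene ends were added after seeing the data.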

Additional observations from a re-analysis of the deposited data

Results flagged for a closer look

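For 4 genes both citraconate libraries lay on one side of the DMSO-titled control libraries in the first series (ZR_dmCitra against ZR_DMSO) and on the other side in the second (Citraconate_50K against DMSO_50K). The difference between the series was not tested. Percentiles are those of the equal-length lists of each comparison, with a peak absent from the list set at 0. Mgst1 was 23.3 points higher with citraconate in the first series, while in the second the value was -6.31. Prdx5 had -25.5 in the first and 48.5 in the second. Gsto1 and Gsto2, which share the peak, had 7.31 in the first and -5.31 in the second. Over the 2925 genes whose groups were separate in each of these series, 675 (23.1%) lay on opposite sides, and of the 42 genes 4 of 8 did. The first-series values rest on the ZR_DMSO libraries, which stood apart. With ZR as control they kept their sign but were smaller. ZR_dmCitra minus ZR was 1.25 for Mgst1, -6.52 for Prdx5 and 0.498 for Gsto1 and Gsto2, and none was called by rank. In the second series compound and labelled cell line cannot be told apart.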

How the results depend on the processing

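Of 104 counts under alternatives other than left-out libraries, 73 stayed within 1.5 times the reported count and 31 moved. The cause was not tested. Among these alternatives a background share was taken only with ZR as control. ZR against EV: gained genes 0 with a 500 bp window, 1 by summit and 1 at the shortest of 14 lengths; lost genes 1 with 2 kb and 2 at the shortest length. ZR_GSK343 against ZR_DMSO: gained genes 6 with lists as deposited, 1 with start sites and 1 with ZR as control; gained regions 7 as deposited and 3 with ZR; lost regions 4 with ZR. ZR_dmCitra against ZR_DMSO: gained genes 11 as deposited, 2 with start sites and 0 with ZR; lost genes 0 as deposited; gained regions 28 as deposited, 10 with 50% overlap and 1 with ZR; lost regions 0 as deposited and 3 with ZR. Citraconate_50K against DMSO_50K: gained genes 1 as deposited; lost genes 2 as deposited, 2 with 500 bp and 0 at the shortest length; gained regions 3 as deposited; lost regions 15 as deposited and 7 with 50% overlap.

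Pairing libraries by replicate number moved 4 counts with the replicate block: ZR_GSK343 gained genes 1 and lost regions 2, ZR_dmCitra lost genes 0 and lost regions 2. Same-numbered libraries shared only a number, with correlations of their deviations of -0.00853, 0.0303, 0.000727 and -0.00663 over 3250 genes.

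Leaving out each library in turn gave, for gained genes, lost genes, gained regions and lost regions, ranges of 2 to 3, 0 to 1, 23 to 27 and 12 to 21 in ZR against EV, 3 to 7, 0 to 0, 1 to 4 and 1 to 5 for ZR_GSK343, 4 to 8, 0 to 3, 4 to 12 and 1 to 5 for ZR_dmCitra, and 5 to 8, 1 to 2, 8 to 25 and 2 to 7 for Citraconate_50K. These counts follow a looser rule at other list lengths, and no background share was taken for them. Unknown depth and lists of 12390 to 60346 peaks limit what an absent peak shows.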
